A study of Homo sapiens with 6 samples.

Results

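A set of 6070 human nuclei, 11.2% of the 54030 human nuclei recovered from 6 teratoma libraries, was described as candidate ciliated ependymal or floor plate-like nuclei. A nucleus entered the set when it carried at least 1 unique molecular identifier (UMI, one counted transcript molecule) for at least 3 of 7 genes: TTC6, DTHD1, SPON1, RFX4, CDHR3, FAM135B and NTN1. Human nuclei were barcodes with at least 500 UMIs and 300 genes of the human genome and at least 90% of their UMIs on it. The set therefore carries these 7 genes by choice, and the levels of the 7 genes are given as a description only. Against lineage markers the name held for part of the set: 1451 of the 6070 nuclei (23.9%), in 2 of 11 clusters, carried floor plate markers, and the other clusters carried markers of neurons, mesenchyme, choroid plexus, gut and other tissues.

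All 6 libraries came from H1, an established human embryonic stem cell line. H1 cells were unmodified (WT), knocked out for the long non-coding RNA lncPRESS1 (KO), or from another line, ΔATG (abbreviated DATG here), for which no sequence change is described; each group had 2 libraries. The cells were grown as flank teratomas in matrigel in NSG mice, which lack mature T, B and NK cells and keep myeloid cells, so host nuclei are mixed in, and the frozen tumours were profiled by droplet sequencing of single nuclei. Whether a group's 2 libraries are separate tumours, and whether KO and DATG are single clones, is not stated, so the spread between libraries may be partly technical. LNCPRESS1 itself was nearly absent: all human nuclei together held 9 and 3 UMIs in the WT libraries, 3 and 0 in the KO libraries and 1 and 3 in the DATG libraries, too few to check the labels, and among the selected nuclei it was counted only in WT replicate 1, with 6 UMIs.

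The floor plate is the ventral midline of the neural tube. Its cells secrete Sonic hedgehog (SHH), which patterns the ventral neural tube, and netrin, slit and F-spondin proteins, which guide commissural axons. Ependymal cells later line the brain ventricles and the central canal with motile cilia, whose beating is built on dynein arms, radial spokes and tubulin-bound axonemal proteins under the control of FOXJ1 and RFX transcription factors, which bind a DNA element called the X-box.

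One gene of the rule, RFX4, encodes such a factor, and 1 of its 3 RefSeq start windows, at a transcript start inside the gene as positioned below, carries a full X-box. The motif searched was GTNNCC followed, after any 2 bases, by GGNAAC, on both strands in RefSeq windows of GRCh38.p14 from 250 bases before to 50 bases after each gene start. It was present in 1.49% of all 35116 windows, in 7 of the 58 windows (12.1%) of the 48 motile cilia genes that matched the table, and in RFX4 alone among the 4 rule genes that matched. RFX4 and 3 cilia genes are shown because their levels are described below; the motif is in capitals and the sequence runs 5′ to 3′ on the gene's strand, where the DNAH12 match reads as the motif on the opposite strand.
RFX4, chr12:106601129-106601158, plus strand: cctgtggcGTTGCCATGGCAACccactgac
SPAG16, chr2:213284272-213284301, plus strand: gcaacatcGTTGCCACGGTAACtgggaggc
LRRC9, chr14:59920112-59920141, plus strand: gagatcagGTTACCTAGGCAACcgccacag
DNAH12, chr3:57544364-57544393, minus strand: ccgccacaGTTTCCATGGCGACgacgttgt
The matches began 11 bases before that start of RFX4, and 184, 24 and 41 bases before the start in the window of SPAG16, LRRC9 and DNAH12. The other 4 cilia genes with a match were CFAP100, DNAH11, SPAG6 and TTC29. The share depends on the spelling. With GTTNCC as the first part the motif was in 3.45% of cilia windows and 0.490% of all windows, with GTTGCC in 3.45% and 0.362%, and with GTTNCC and AT as the 2 bases between in 0% and 0.140%. Shortened to GTTGCC, 2 bases and GG it was in 22.4% and 2.42%, and as GTTNCC, AT and GG in 3.45% and 1.11%; these spellings overlap each other. A match is a description of letters and not evidence of binding.

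The selected nuclei numbered 992 and 1051 in the WT libraries, 1147 and 1097 in the KO libraries, and 1548 and 235 in the DATG libraries. The 6 libraries held 35785812 to 47574535 UMIs and 5542 to 12254 human nuclei each. DATG replicate 2 stood apart: 35.5% of its barcodes (3651 of 10288) carried less than 90% of their UMIs on either genome, against 4.75% to 13.2% elsewhere, and its members correlated with those of DATG replicate 1 at 0.877 across genes; the members of the WT libraries correlated at 0.975 and those of the KO libraries at 0.982. Results are therefore also given without it. Pairs of libraries shared 7 to 45 human barcodes, at most 0.411% of the smaller library.

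The rule admitted deep nuclei far more often than shallow ones. Members had a median of 6374.5 UMIs and the other human nuclei 2740.5. Of nuclei with 500 to 1000 UMIs, 0.673% met the rule, against 7.15% at 2000 to 4000 UMIs and 72.7% at 16000 UMIs or more. Nuclei scored as likely doublets made up 21.6% of members and 6.71% of the others. At the threshold itself, the 2991 nuclei with exactly 3 of the genes carried 10.7 rule-gene UMIs per 10000, close to the 8.37 of the 7885 nuclei with exactly 2, whereas the 3079 nuclei with 4 or more carried 33.7. No mouse nucleus met the rule, although their few human UMIs (medians of 185 to 434 per nucleus) put single rule genes in 0 to 6.93% of them.

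As counted, members made up 17.9% and 8.58% of human nuclei in the WT libraries, 11.4% and 13.8% in the KO libraries, and 12.8% and 3.86% in the DATG libraries. The exact (Clopper-Pearson) 95% intervals, which cover counting error only, were 16.9% to 18.9% for WT replicate 1, the highest, and 3.39% to 4.37% for DATG replicate 2, the lowest. The WT and DATG pairs each spread more widely than any distance between group means: the shares were 13.2% ± 6.59 (SD, n = 2) in WT, 12.6% ± 1.73 in KO and 8.32% ± 6.32 in DATG. Two-sided exact permutation tests gave p = 1.00 for KO against WT and p = 0.667 for DATG against each other group, and 2 libraries against 2 cannot give less than 0.333.

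With every nucleus thinned to 2000 human UMIs the order of the libraries changed. The share was then 5.19% and 4.56% in the WT libraries, 6.90% and 7.11% in the KO libraries, and 10.1% and 1.197% in the DATG libraries. Both KO libraries lay above both WT libraries, by 2.12 percentage points on average (7.003% ± 0.149 against 4.88% ± 0.446, SD, n = 2; exact permutation p = 0.333, the smallest the design allows). The DATG libraries lay on either side of all the others, with 5.63% ± 6.26 (exact permutation p = 1.00 against each group). Thinning left out between 1230 nuclei (WT replicate 1) and 4103 nuclei (WT replicate 2) under 2000 UMIs. Within a narrow band of 2000 to 4000 UMIs the unthinned shares were 6.6% and 5.91% in the WT libraries, 7.53% and 7.93% in the KO libraries, and 9.74% and 2.34% in the DATG libraries. In the other bands the KO and WT libraries overlapped: 1.55% and 2.70% in WT against 3.46% and 1.69% in KO at 1000 to 2000 UMIs, 14.7% and 12.3% against 16.5% and 13.6% at 4000 to 8000, and 41.2% and 38.2% against 43.0% and 33.04% at 8000 to 16000. They also overlapped for the thinned share with at least 2 rule genes, at 19.3% and 15.8% against 19.01% and 17.8%.

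**Figure D1:**
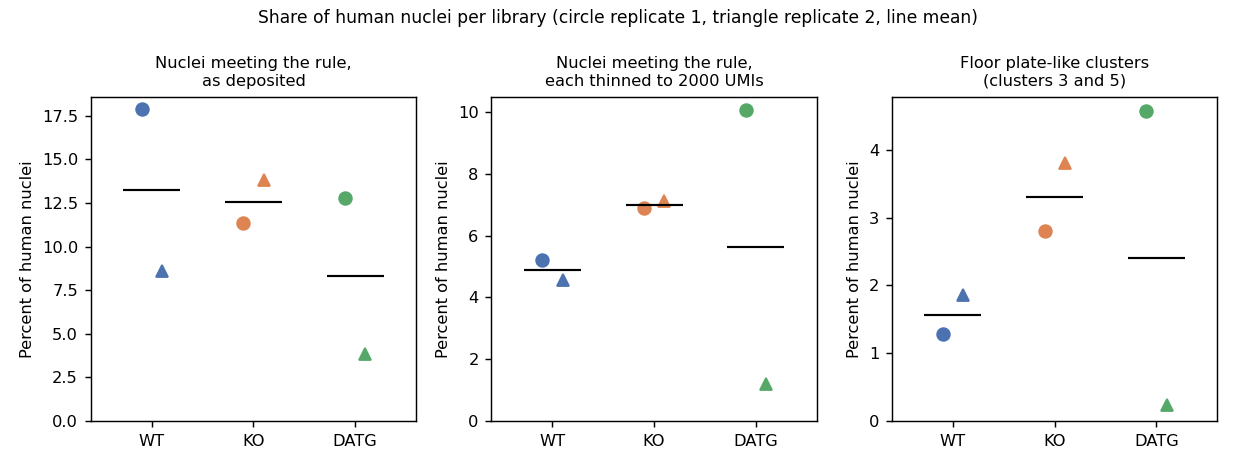
Share of human nuclei (percent, linear axes from 0) in each library for 3 definitions: the rule as deposited, the rule after each nucleus was thinned to 2000 UMIs, and membership in the 2 floor plate-like clusters; circles are replicate 1, triangles replicate 2 and lines the mean of 2 libraries. WT replicate 1 falls from the highest share, 17.9%, to 5.19% after thinning, and the 2 DATG libraries are the highest and lowest in the middle panel, at 10.1% and 1.197%.

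The 7 rule genes did not contribute equally, and their mix differed between libraries. The guidance cue netrin-1 (NTN1, chr17:9021542-9244000, plus strand, on GRCh38 as are all gene positions here) was detected in 71.7% and 78.0% of WT members, 92.2% and 92.2% of KO members, and 91.5% and 31.5% of DATG members. RFX4 (chr12:106582907-106762803, plus strand) followed the same order, with 74.4% and 67.2%, 93.0% and 89.97%, and 87.9% and 28.5%. F-spondin (SPON1, chr11:13962689-14267884, plus strand), an extracellular matrix protein of the floor plate, was in 76.4% and 78.5%, 62.6% and 69.4%, and 74.5% and 83.8%. CDHR3, a cadherin of ciliated epithelia (chr7:105876796-106033773, plus strand), was in 60.2% and 59.8%, 55.5% and 58.3%, and 56.8% and 82.6%. TTC6 (chr14:37595847-38041442, plus strand) was in 67.2% and 68.9%, 48.3% and 49.3%, and 68.7% and 73.2%. FAM135B was in 20% to 44.1% of members. DTHD1 (chr4:36281622-36345756, plus strand) was the rarest, in 1.11% and 7.23%, 4.88% and 11.2%, and 16.9% and 1.28%. In DATG replicate 2 a single combination, TTC6 with SPON1 and CDHR3, accounted for 43.0% of members, against 8.87% and 11.99% in the WT libraries, and RFX4 and NTN1 were each in fewer of its members than in any other library. The other human nuclei also held these genes: RFX4 was in 6.95% to 27.5% of them by library, NTN1 in 4.75% to 22.6% and SPON1 in 6.66% to 30.9%, at the lower median depth of 2740.5 UMIs against 6374.5 in members.

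**Figure D2:**
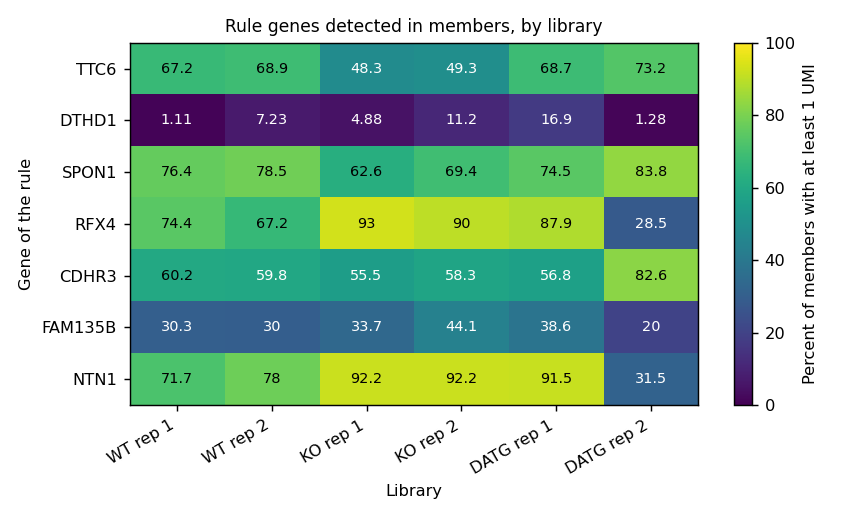
Percent of members with at least 1 UMI for each gene of the rule (rows) in each library (columns), as a colour scale. DATG replicate 2 has the highest shares for SPON1 (83.8%) and CDHR3 (82.6%) and the lowest for RFX4 (28.5%) and NTN1 (31.5%).

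Clustering the members without the rule genes separated 11 groups of nuclei, and floor plate markers marked 2 of them. Cluster 3 (849 nuclei, 13.99% of members) had 10 of 14 floor plate markers and 45 of 61 motile cilia markers at least 2-fold above the other members, and is called ciliated floor plate-like. Cluster 5 (602 nuclei, 9.92%) had 7 of 14 floor plate markers above that level, among them SHH as a leading gene, and is called floor plate-like. The share of all genes raised above the other members was not counted. Marker counts against the other members, here and below, therefore only name the clusters. Nuclei of cluster 3 carried a median of 6 rule genes and those of cluster 5 a median of 4, at median depths of 3679 and 2776.5 UMIs, against 6374.5 over all members. Likely doublets made up 5.51% of the 2 clusters together, against 26.6% of the other members.

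The other members sat in 9 clusters, and in 7 of these the markers of another cell type led. Cluster 1 (1195 nuclei) was neuron-like, led by MYT1L, SLC6A5 and STMN2, with 34.0% likely doublets. Cluster 2 (861 nuclei) was mesenchyme-like, with all 10 mesenchyme markers raised 2-fold and 51.1% likely doublets. Cluster 4 (808 nuclei) was choroid plexus-like, with TTR and HTR2C among its leading genes, and held 2.72% likely doublets. Cluster 7 (358 nuclei) was gut epithelium-like with 9 of 11 gut markers, and held 93 and 137 nuclei of the WT libraries, 1 and 11 of the KO libraries, and 14 and 102 of the DATG libraries. Cluster 8 (319 nuclei) was neural progenitor-like, cluster 10 (167) epithelium-like and cluster 11 (103) Schwann or neural crest-like. Cluster 6 (583 nuclei, median 16610 UMIs, 37.0% likely doublets) mixed melanocyte and gut markers, cluster 9 (225 nuclei) mixed hepatocyte and pluripotency markers, and both were left unnamed. These clusters were rebuilt here from gene levels, so their leading genes describe how they were formed and are not tested.

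**Figure D3:**
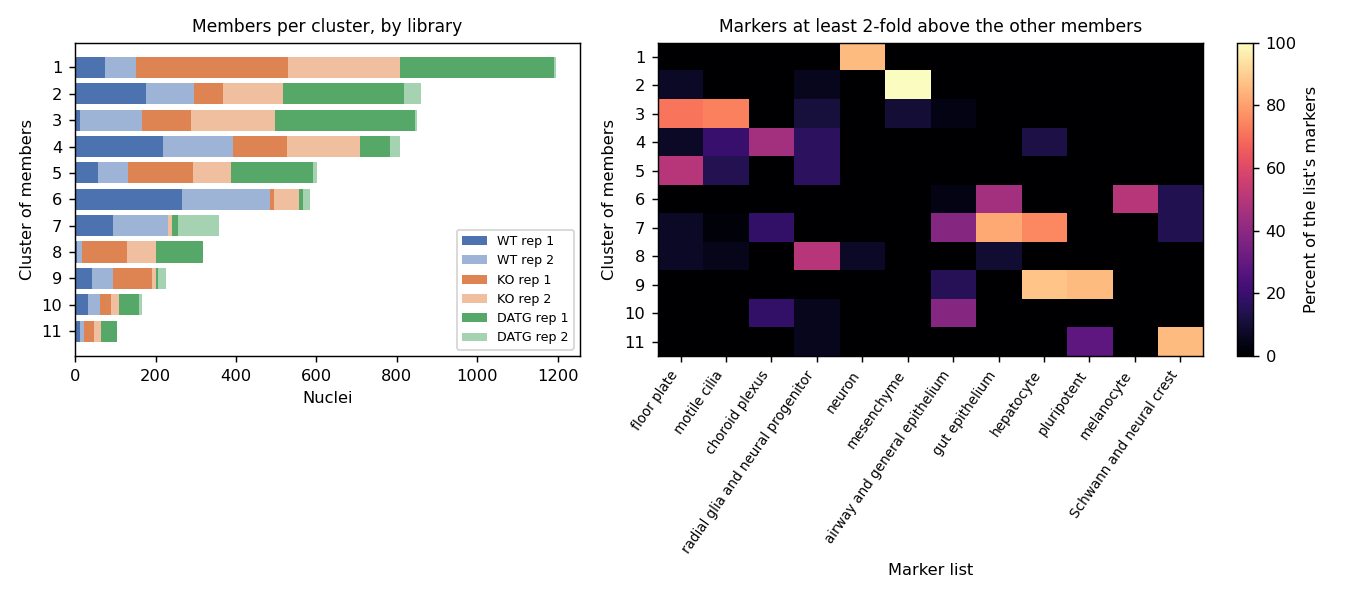
Left, number of members in each of the 11 clusters, stacked by library; right, percent of the markers of each list that were at least 2-fold above the other members in each cluster. The floor plate and motile cilia columns are filled for cluster 3 (10 of 14 and 45 of 61 markers) and the floor plate column for cluster 5 (7 of 14).

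By library the 2 floor plate-like clusters held 71 and 227 nuclei of the WT libraries, 283 and 303 of the KO libraries, and 553 and 14 of the DATG libraries. These were 1.28% and 1.85% of human nuclei in the WT libraries, 2.80% and 3.81% in the KO libraries, and 4.57% and 0.230% in the DATG libraries. Both KO libraries again lay above both WT libraries and the DATG libraries on either side of all others; no test was made, because the clusters were formed from the same nuclei. The order did not hold for cluster 3 alone, which was 0.235% and 1.25% of human nuclei in the WT libraries against 1.198% and 2.63% in the KO libraries. Cluster 3 held 13 and 153, 121 and 209, and 350 and 3 nuclei in the same order, so WT replicate 1 and DATG replicate 2 say little about it, and cluster 5 held 58 and 74, 162 and 94, and 203 and 11.

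The ligand that defines the floor plate, SHH (chr7:155799986-155812273, minus strand), marked both clusters in nearly every library. Clusters 3 and 5 were picked by the share of the floor plate list raised in them. Levels of SHH and the other genes of that list therefore describe the clusters and are no separate support for the name. Levels here are UMIs of a gene per 1000000 human UMIs (CPM), summed over the nuclei of a library or pooled over libraries. In cluster 5 SHH stood at 127 and 150.3 in the WT libraries, 214 and 141 in the KO libraries, and 149 and 308 in the DATG libraries. In cluster 3 it stood at 111 and 112 in the WT libraries, 131 and 123 in the KO libraries and 155 in DATG replicate 1, and it was not counted in the 3 nuclei of DATG replicate 2. Other members held 12.3 CPM and the other human nuclei 4.78 CPM pooled, with a library range of 3.36 to 8.70, so no library's value in the other nuclei came near either cluster.

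Several transcription factors of the same floor plate list were high alongside SHH. FOXA2, the forkhead factor that acts with hedgehog signalling in floor plate specification, was at 70.5 and 37.6 CPM in the WT libraries, 49.2 and 30.6 in the KO libraries, and 53.3 and 34.2 in the DATG libraries in cluster 5. In cluster 3 FOXA2 was lower in WT than in DATG replicate 1, at 0 and 18.7 CPM in the WT libraries, 35.8 and 25.5 in the KO libraries and 74.3 in DATG replicate 1, and its pooled level was 47.6 CPM against 2.36 in the other human nuclei. Its relative FOXA1 had 101 CPM in cluster 3, 59.5 in cluster 5 and 4.84 elsewhere. NKX6-1, a ventral neural tube factor, had 83.3 CPM in cluster 3, 52.7 in cluster 5 and 4.86 elsewhere, and NKX2-2, a marker of the domain next to the floor plate, had 21.5, 23.9 and 2.80 CPM in the same order. OLIG2, the factor of motor neuron progenitors, was not counted in either cluster, and PAX6, a factor of more dorsal progenitors, was at 3.62 and 7.81 CPM against 27.6 in the other nuclei. The notochord factor TBXT was not counted in either cluster and LMX1A, a factor of the midbrain floor plate, was near the level of other nuclei (28.97 and 37.1 against 27.6 CPM).

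CORIN, a transmembrane protease used as a floor plate surface marker (chr4:47593998-47838106, minus strand), was higher in cluster 3 than in cluster 5 within each library. In cluster 3 it was at 152 and 611 CPM in the WT libraries, 530.3 and 358 in the KO libraries, and 301 and 185 in the DATG libraries, the last from 3 nuclei. In cluster 5 its values were 24.7 and 204 in the WT libraries, 64.2 and 51.7 in the KO libraries, and 67.0 and 137 in the DATG libraries. Outside the clusters it was at 14.1 CPM pooled, and in WT replicate 1 at 27.8 CPM, above cluster 5 of that library. Across libraries the 2 clusters overlapped. ALCAM, an adhesion molecule, showed the same order (1962, 507 and 343 CPM).

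SLIT1 and SLIT2 were higher in both clusters than in the other nuclei, and the slit receptors lower. Of 16 netrin and slit guidance genes outside the rule and at the 5 CPM floor over all human nuclei, 2 were at least 2-fold higher in cluster 3 and 10 at least 2-fold lower, and 1 and 6 in cluster 5. Of all genes, 16.0% were 2-fold lower in cluster 3 and 11.4% in cluster 5, and 5.72% and 4.20% were 2-fold higher. SLIT1 was within 1089.9 to 1314 CPM in all 6 libraries of cluster 5 and within 1151 to 1347 in the 5 larger libraries of cluster 3, against 86.2 CPM in the other nuclei. SLIT2 had 3686 and 2456 CPM against 1316, while SLIT3 had 548 and 522 against 794. The slit receptors ROBO1 (299 and 378 CPM against 1199) and ROBO2 (149 and 291 against 1446) were below the level of the other nuclei in both clusters. The netrin receptor DCC was not: it had 1707 and 1669 CPM against 1096. Of the rule genes in these clusters, NTN1 reached 4237 and 2492 CPM, SPON1 3055 and 1444, and RFX4 2946 and 1964.

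Hedgehog pathway genes that respond to the ligand were not high in these nuclei. Of 18 hedgehog pathway genes at the same floor, 2 were at least 2-fold higher in cluster 3, where 5.72% of all genes were, and 7 at least 2-fold lower, where 16.0% were. The signal-induced factor GLI1 had 2.33 CPM in cluster 3, 5.37 in cluster 5 and 10.3 in the other nuclei. The transducers GLI2 (27.2, 48.3 and 227 CPM) and GLI3 (144, 201 and 414 CPM) followed the same order. The receptor PTCH1 was lower in cluster 3 than in cluster 5 in all 6 libraries, at 98.6 against 255 CPM pooled, with 273 elsewhere. DATG replicate 2 held only 3 nuclei of cluster 3, so its PTCH1 value says little. SCUBE1, of a family that aids hedgehog release, was the other gene besides SHH above 2-fold in cluster 3, at 40.4 CPM, with 49.8 in cluster 5 and 11.6 elsewhere.

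**Figure D4:**
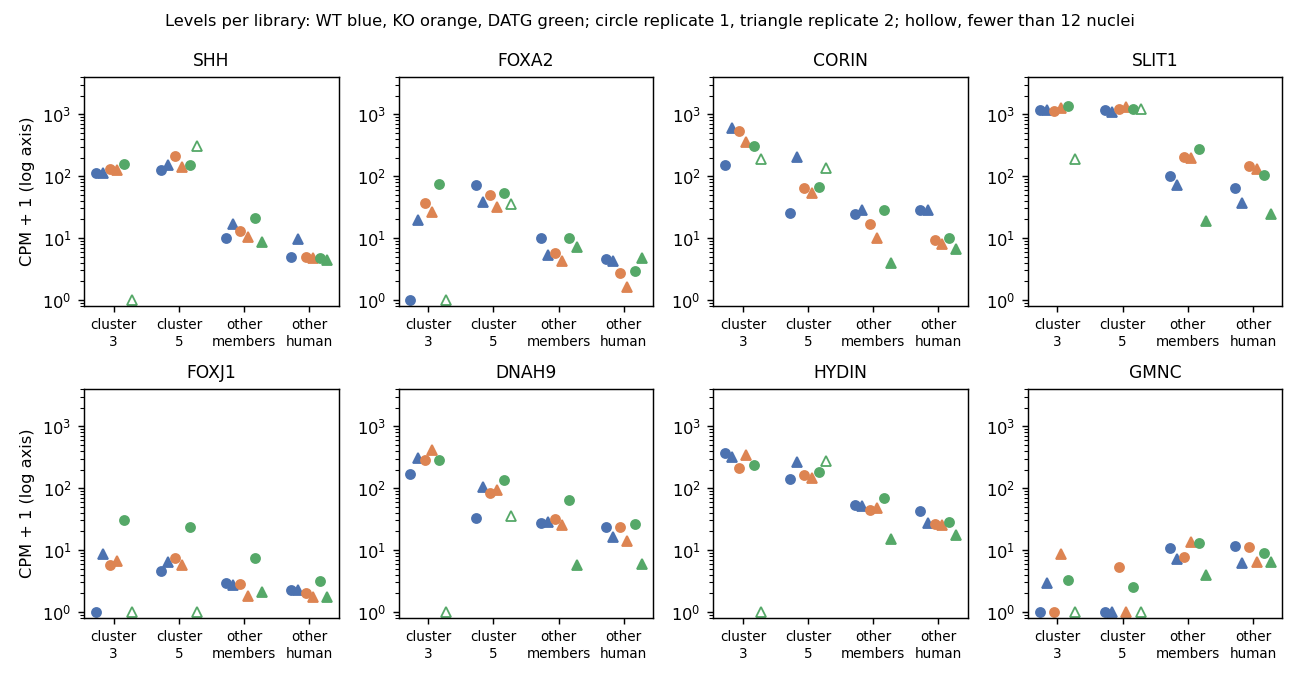
CPM + 1 (log axis) of 8 genes in cluster 3, cluster 5, the other members and the other human nuclei, 1 point per library (WT blue, KO orange, DATG green; circle replicate 1, triangle replicate 2; hollow, fewer than 12 nuclei). SHH and SLIT1 separate both clusters from the other nuclei, CORIN and DNAH9 are highest in cluster 3, and GMNC, a regulator of multiciliated cells, is not raised in either.

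Genes of the axoneme were higher across most of the list in cluster 3 and across a smaller part of it in cluster 5. Counts here take genes at 5 CPM or more over all human nuclei, members included, and leave out the rule genes. The compared nuclei can therefore help a gene past the floor, as they did for SHH among the hedgehog genes, which lay under it in the other human nuclei. Of 46 such motile cilia genes, 44 were at least 2-fold above the other human nuclei in cluster 3 (median 6.69-fold, against 0.867-fold over all 14930 genes, of which 5.72% were 2-fold higher). In cluster 5, 35 of the 46 were (median 2.71-fold, against 1.003-fold over all genes, of which 4.20% were 2-fold higher). All members together showed 19 of 46, where 1.00% of all genes were 2-fold higher. With no floor, 58 of 61 listed genes were 2-fold higher in cluster 3 and 49 of 61 in cluster 5, but the share of all genes with no floor was not counted. Cilia markers were not confined to these clusters: against the other members, the choroid plexus-like cluster 4 had 12 of 61 raised, more than the 9 of 61 in cluster 5, and also the multiciliation regulators GMNC and CDC20B.

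Outer arm dynein heavy chain DNAH9 (chr17:11598431-11969748, plus strand) was at 166 and 305 CPM in the WT libraries, 279 and 418 in the KO libraries and 288 in DATG replicate 1 in cluster 3 and at 31.7 and 102 in the WT libraries, 83.4 and 94.0 in the KO libraries, and 134 and 34.2 in the DATG libraries in cluster 5. The other human nuclei held 17.6 CPM, and the 5 larger libraries of cluster 3 all lay above every library of cluster 5. HYDIN, a central pair protein, was at 373 and 323 CPM in the WT libraries, 213 and 343 in the KO libraries and 238 in DATG replicate 1 in cluster 3, against 172 in cluster 5 and 26.5 elsewhere. Parts of other axonemal structures had the same order of levels. The inner arm dynein DNAH7 had 450.4, 228 and 39.7 CPM, the nexin-dynein regulator DRC1 144, 56.6 and 6.24, and the radial spoke protein RSPH1 48.1, 17.6 and 2.68. The tektin TEKT1 had 65.2, 21.0 and 3.68 CPM and the microtubule inner protein CFAP52 77.3, 19.0 and 3.24. Of the genes printed with an X-box, SPAG16, a central apparatus protein, had 386, 246 and 141 CPM, LRRC9 141, 67.8 and 20.7, and the dynein DNAH12 61.8, 19.0 and 8.71. The 2 exceptions among the 46 in cluster 3 were AK9 (72.9 against 42.7 CPM) and DNAH11 (58.2 against 29.5).

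The factors that drive ciliary genes were uneven. FOXJ1 (chr17:76136333-76141299, minus strand), the master regulator of motile cilia, rested on few counts: cluster 3 held 64 UMIs, at 0 and 7.47 CPM in the WT libraries, 4.78 and 5.67 in the KO libraries and 29.3 in DATG replicate 1, with its highest level in DATG replicate 1. In cluster 5 FOXJ1 was at 3.53 and 5.37 CPM in the WT libraries, 6.42 and 4.70 in the KO libraries, and 22.8 and 0 in the DATG libraries, again highest in DATG replicate 1. RFX2 had 448, 382 and 123 CPM and RFX3 1563, 1141 and 562 CPM in cluster 3, cluster 5 and the other nuclei, and both were spread evenly over the libraries. RFX1 (13.7 and 14.2 against 25.7 CPM) was not raised.

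Most regulators of multiciliated cells did not accompany the axoneme genes. Of 8 at the floor, 1 was 2-fold higher and 3 were 2-fold lower in cluster 3, where 5.72% and 16.0% of all genes were. GMNC, which starts the multiciliation programme, had 3.36 and 1.46 CPM in clusters 3 and 5 against 7.23 in the other nuclei. MCIDAS, CCNO and TP73 were at or under 1.46 CPM in both clusters. DEUP1, of the deuterosome that multiplies basal bodies, had 13.2 and 15.6 against 6.58 CPM. At these counts a small multiciliated fraction could be missed, and its presence in single nuclei was not tested.

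Markers of mature ependyma were mixed. Of 7 at the floor, 6 were at least 2-fold higher in cluster 3 (5.72% of all genes) and 4 in cluster 5 (4.20% of all genes). Without DATG replicate 1 these were 2 and 3. The glutamate transporter SLC1A3 was at 871 and 695 CPM in the WT libraries, 769 and 792 in the KO libraries and 944 in DATG replicate 1 in cluster 3, with 353 in cluster 5 and 133 elsewhere, and the filament protein VIM at 1049.7, 801 and 418. Both are also genes of radial glia. PROM1 had 132, 132 and 49.3 CPM, and TPPP3, a tubulin-binding protein of ependyma, 33.6, 8.30 and 3.03. The water channel AQP4 rested on 21 UMIs in cluster 3 and 3 in cluster 5 (5.43 and 1.46 CPM), and GFAP was at 1.03 CPM in cluster 3.

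Proliferation and position separated the 2 clusters further. The mitotic genes TOP2A (52.8 CPM in cluster 3, 181 in cluster 5, 97.7 elsewhere) and MKI67 (30.01, 94.7 and 48.0) lay above the other nuclei in cluster 5 and below them in cluster 3. Of 12 G2 and M phase genes, 5 were 2-fold lower in cluster 3 (16.0% of all genes), and the median in cluster 5 was 1.66-fold. Of 15 HOX genes of hindbrain and spinal cord at the floor, 6 were at least 2-fold higher in cluster 5 (median 1.90-fold; 4.20% of all genes), against 2 in cluster 3 (5.72% of all genes). Without DATG replicate 1, 3 were in cluster 5 (median 1.46-fold), and 6 were 2-fold lower in cluster 3, where 1 had been with it. HOXD3 in cluster 5 was at 3.53 and 37.6 CPM in the WT libraries, 74.9 and 68.2 in the KO libraries, and 122 and 0 in the DATG libraries, and HOXD10, a gene of the lumbar cord, at 0 and 16.1 in the WT libraries, 36.4 and 18.8 in the KO libraries, and 120.3 and 0 in the DATG libraries, highest in DATG replicate 1. HOXB3 had 139.9 and 162 CPM against 79.9. OTX2, a factor of forebrain and midbrain, was at 5.43 CPM in cluster 3 and 14.2 in cluster 5, against 29.4 elsewhere. Markers of other lineages were low: 10 of 13 neuronal, 7 of 10 mesenchymal and 6 of 6 gut genes were at least 2-fold lower in cluster 3 than in the other nuclei, and 8 of 13, 10 of 10 and 6 of 6 in cluster 5. Over all genes these shares were 16.0% and 11.4%.

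SHH, CORIN and FOXJ1 were highest in nuclei with all 7 rule genes, but the floor plate list as a whole did not climb evenly. Its summed level was 2454 CPM with no rule gene, 1958 with exactly 3, 2158 with 4, 2837 with 5, 3720.0 with 6 and 7084 with all 7. SHH went from 3.77 CPM in nuclei with none of the 7 genes to 9.88 with exactly 3 and 109 with all 7. CORIN went from 14.1 to 11.2 and 372 CPM, and FOXJ1 from 1.01 to 1.99 and 20.04. The neuronal gene STMN2 went the other way, from 194 to 122 and 81.0 CPM. These levels are pooled over libraries. Of the 309 nuclei with all 7 genes, 154 came from DATG replicate 1 and 82 from KO replicate 2. The rise was not examined library by library. The share of members in the floor plate-like clusters was 6.42% at 3 rule genes, 21.1% at 4, 41.5% at 5, 59.3% at 6 and 80.3% at 7. At the threshold of 3 genes, CORIN (11.2 CPM) was below its level in the other human nuclei (14.1), and SHH (9.88) was above its level there (4.78).

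**Figure D5:**
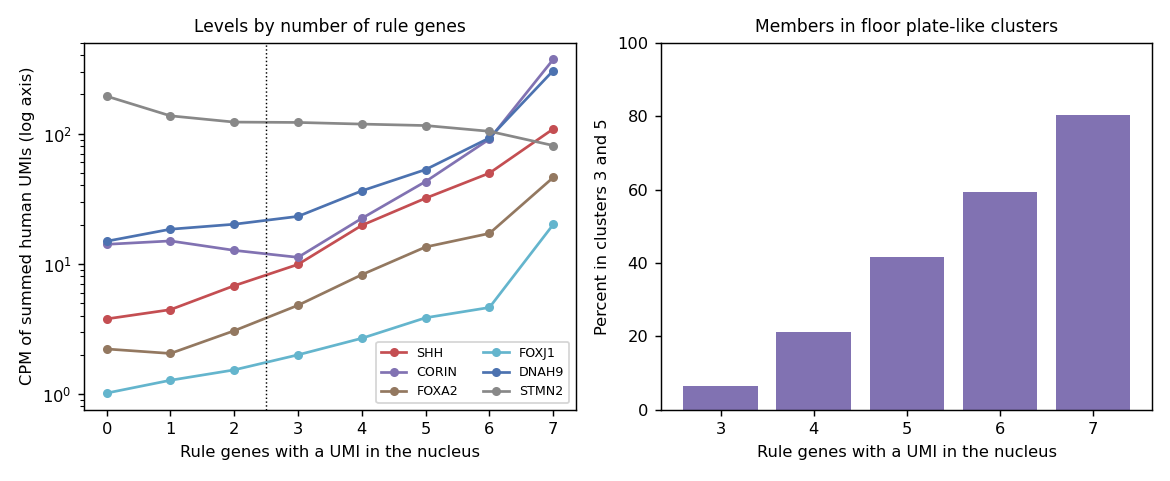
Left, CPM (log axis) of 6 genes in human nuclei grouped by how many of the 7 rule genes had a UMI; right, percent of members in clusters 3 and 5 at each count. SHH reaches 109 CPM and the cluster share 80.3% at 7 genes, while nuclei with exactly 3 genes sit at 9.88 CPM and 6.42%. Libraries are pooled, and 154 of the 309 nuclei with 7 genes are from DATG replicate 1.

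Among genes outside the rule with at least 20 CPM in the members of each library, the NMDA receptor subunit GRIN2A had the highest fold of members over other nuclei. It had 179.9 CPM in members and 33.6 in the other human nuclei, 5.35-fold, was higher in members in all 6 libraries, and reached 1338 CPM in cluster 3. WDR49 (3.32-fold), SLIT1 (3.05-fold), the acid-sensing channel ASIC2 (2.91-fold), the heparan sulfate sulfotransferase HS3ST4 (2.76-fold) and DNAH7 (2.59-fold) came next. In each of these 6 genes cluster 3 held the highest pooled level and the members outside clusters 3 and 5 the lowest of the 3 parts: ASIC2 had 476, 127 and 42.2 CPM. The kainate receptor subunit GRIK4 (433, 159 and 55.4 CPM) and PLPPR1 (906, 204 and 80.9 CPM) were of the same kind. SHH, under the level of 20 CPM in WT replicate 1 and DATG replicate 2, had 25.7 CPM in members against 4.78.

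Between the genotypes, no gene passed within the members when all 6 libraries were fitted together. With edgeR's quasi-likelihood test and Benjamini-Hochberg adjustment at 0.05, 0 of 22218 genes were called for KO against WT, DATG against WT or DATG against KO (0% in each direction). Unadjusted p-values under 0.05 numbered 779, 851 and 1579, and DESeq2 called 47, 86 and 168. None of 13 floor plate and none of 62 motile cilia genes was called (0% of all genes), with median log2 differences of -0.06, 0.70 and 0.32 for floor plate and 0.13, 0.22 and 0.08 for cilia, where the medians of all genes were -0.00025, 0.0025 and 0.015. Without DATG replicate 2, 647 genes were called for KO against WT and 400 for DATG against WT.

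Fitting the 4 WT and KO libraries alone called 615 of 21678 genes in members, 110 higher in KO (0.507%) and 505 lower (2.33%); the other pairs of groups gave 0. Gut genes were lower, with 8 of 11 called (median log2 difference -3.11), for example SI, the brush border sucrase-isomaltase (-4.58 ± 0.62 SE, adjusted p = 0.0217) and HNF4A, a hepatic and gut factor (-3.14 ± 0.31 SE, adjusted p = 0.00533). The gut-like cluster of members held 93 and 137 nuclei in the WT libraries and 1 and 11 in the KO libraries, and the part of these nuclei in the difference was not tested. HOX genes of hindbrain and cord were higher, with 12 of 23 called (median 1.79), led by HOXD3 (2.75 ± 0.35 SE, adjusted p = 0.00980). Neuron markers were higher in the same comparison, with 4 of 14 called and a median of 0.84. The neuron-like cluster 1 held 75 and 77 nuclei in the WT libraries and 376 and 279 in the KO libraries, and the progenitor-like cluster 8 held 5 and 11 against 114 and 71; their part in the HOX difference was not tested. Of the floor plate list only SLIT1 was called (1.19 ± 0.21 SE, adjusted p = 0.0268), with a list median of -0.05, and of the motile cilia list only CFAP221, lower in KO (-1.34 ± 0.24 SE, adjusted p = 0.0270). Among the rule genes, whose values chose the nuclei, RFX4 differed by 1.07 ± 0.22 SE, given as a description only.

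Several of the genes nearest to a call in the 6-library fit went the same way in the rest of the tumour. The mitochondrial protein gene CHCHD2 was at 11.3 and 14.001 CPM in the WT libraries, 18.6 and 9.98 in the KO libraries, and 0.374 and 0.355 in the DATG libraries in members, and at 13.99 and 24.6 in the WT libraries, 24.4 and 13.4 in the KO libraries, and 0.633 and 0.227 in the DATG libraries in the other human nuclei. Its values in both DATG libraries lay below all others in both sets, and the adjusted p in members was 0.702 against WT (edgeR, log2 difference -4.97 ± 0.55 SE). The zinc finger gene ZNF667 was at 6.72 and 10.501 CPM in the WT libraries, 0.628 and 0.353 in the KO libraries, and 8.14 and 7.09 in the DATG libraries in members, low in both KO libraries, with a log2 difference of -4.09 ± 0.53 SE between KO and WT (edgeR adjusted p = 1.00). The elongation factor EEF1A1 was at 277 and 287 CPM in the WT libraries, 297 and 215 in the KO libraries, and 961 and 888 in the DATG libraries, high in both DATG libraries (1.81 ± 0.23 SE, edgeR adjusted p = 0.702). All 13 mitochondrially encoded genes also lay higher in DATG members, with a median log2 difference of 2.86 against WT and 3.05 against KO and 0 called.

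The difference of effects asks whether a genotype contrast in members departs from the same contrast in the other nuclei of the same libraries. For members as a whole 0 of 25204 genes passed in any of the 3 comparisons (edgeR, 0% in each direction; 603, 1472 and 1219 at an unadjusted p under 0.05; DESeq2 called 1, 10 and 16). The smallest unadjusted p for KO against WT belonged to PEX5L, a channel trafficking protein, with a log2 difference of -1.14 ± 0.14 SE (adjusted p = 1.00). Motile cilia genes had a median of 0.34 for KO against WT and 0.28 for DATG against WT, with 51 and 53 of 62 above 0 and 0 called. The medians of all genes were -0.0040 and -0.027, and the share of all genes above 0 was not counted. The 62 include the rule gene DTHD1.

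Within the floor plate-like clusters alone, no gene passed between the genotypes either. Over clusters 3 and 5 edgeR called 0 of 11684 genes in each comparison with 6 libraries (0%; 200, 408 and 370 at an unadjusted p under 0.05) and 0 of 13130 without DATG replicate 2 (0%; 280, 663 and 578). SHH differed by 0.31 ± 0.30 SE on the log2 scale between KO and WT and by 0.37 ± 0.35 SE between DATG replicate 1 and WT. SLIT1, called in the 4-library fit over all members, differed by 0.10 ± 0.32 SE here. FOXJ1 was 2.35 ± 0.67 SE higher in DATG replicate 1 than in WT (unadjusted p = 0.00624, adjusted p = 0.634, edgeR), and HOXD10 2.6 ± 0.83 SE higher (unadjusted p = 0.0126, adjusted p = 0.697, edgeR). With 1 DATG library left in this fit, it is taken to vary as the other groups do.

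Set against all other human nuclei of the same libraries, the other members included, the floor plate-like nuclei did depart for some genes. The values given below for the other nuclei therefore differ from those of the non-members above. On simulated counts for all members, this kind of test made more false calls than its threshold aims at, as described below. For KO against WT, 115 of 24501 genes passed (80 higher, 0.327%, and 35 lower, 0.143%), for DATG against WT 48 (32 higher, 0.131%, and 16 lower, 0.0653%), and for DATG against KO 8 (5 higher, 0.0204%, and 3 lower, 0.0122%). Without DATG replicate 2, over 27489 genes, the counts were 255 (143 higher, 0.520%, and 112 lower, 0.407%), 158 (97 higher, 0.353%, and 61 lower, 0.222%) and 6 (4 higher, 0.0146%, and 2 lower, 0.00728%). Without KO replicate 1 they were 11, 16 and 0, and 9 of the 115 genes remained. A difference of this kind can come from either set, so both are given for the genes described. The genes named in the next sentences were chosen after their values were seen.

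The potassium channel gene KCNH1 was at 70.2 and 74.9 CPM in the WT libraries, 5.64 and 14.8 in the KO libraries, and 11.5 and 0 in the DATG libraries in floor plate-like nuclei. In the other human nuclei it was at 23.0 and 21.4 CPM in the WT libraries, 33.8 and 32.9 in the KO libraries, and 37.6 and 18.6 in the DATG libraries. Both WT libraries lay above every KO and DATG library in the floor plate-like nuclei and below both KO libraries in the others, and the log2 difference of effects was -3.26 ± 0.46 SE for KO against WT (edgeR adjusted p = 1.45e-08) and -3.34 ± 0.50 SE for DATG against WT (adjusted p = 8.34e-07). Without KO replicate 1 the first was -2.84 (adjusted p = 0.0906), and the second was lost without DATG replicate 1, which leaves 14 DATG nuclei. The metalloprotease gene ADAMTS18 was at 261 and 122 CPM in the WT libraries, 51.9 and 64.7 in the KO libraries, and 26.3 and 28.9 in the DATG libraries in floor plate-like nuclei and 57.6 and 52.6 in the WT libraries, 109 and 102 in the KO libraries, and 48.2 and 33.1 in the DATG libraries in the others. Its WT libraries were again the highest in floor plate-like nuclei, with -2.47 ± 0.38 SE for KO against WT (edgeR adjusted p = 6.35e-07) and -2.44 ± 0.46 SE for DATG against WT (adjusted p = 0.000319). Both comparisons lost their call without either KO library (edgeR adjusted p = 0.0768 to 0.317), and DATG against WT also without DATG replicate 1 (adjusted p = 0.660). Chromogranin A (CHGA), a secretory granule protein of neuroendocrine cells, was at 84.3 and 9.70 CPM in the WT libraries, 2.26 and 2.02 in the KO libraries, and 2.88 and 0 in the DATG libraries in floor plate-like nuclei and 13.9 and 10.3 in the WT libraries, 4.26 and 6.03 in the KO libraries, and 8.13 and 14.4 in the DATG libraries in the others, and its value in WT replicate 1 decided the call (-2.80 ± 0.71 SE, edgeR adjusted p = 0.0246 with it and 0.931 without it). It was also lost without KO replicate 1 (edgeR adjusted p = 0.517) or KO replicate 2 (adjusted p = 1.00).

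Of the lists, few members departed with 6 libraries, where 0.327% of all genes passed higher and 0.143% lower for KO against WT. Among these were BMP6 (1.73 ± 0.39 SE, edgeR adjusted p = 0.00626) and MBP (1.79 ± 0.41 SE, adjusted p = 0.00811). In floor plate-like nuclei the neuronal gene ELAVL3 was at 75.8 and 36.0 CPM in WT and 24.8 and 27.0 in KO. In the others ELAVL3 was at 56.8 and 43.6 in WT and 98.2 and 92.6 in KO. It also departed for KO against WT, by -1.86 ± 0.44 SE (edgeR adjusted p = 0.00979). Among motile cilia genes 1 of 62 did for KO against WT: CFAP221, at 33.7 and 66.5 CPM in the WT libraries, 54.2 and 49.9 in the KO libraries, and 58.4 and 28.9 in the DATG libraries in floor plate-like nuclei and 49.8 and 26.4 in the WT libraries, 14.2 and 11.4 in the KO libraries, and 15.97 and 26.5 in the DATG libraries in the others. Its levels in floor plate-like nuclei overlapped between WT and KO, while in the other nuclei both KO libraries lay below both WT libraries, and the difference of effects was 1.48 ± 0.40 SE (edgeR adjusted p = 0.0461). No floor plate gene departed with 6 libraries, and without DATG replicate 2 FOXA1 (1.30 ± 0.35 SE, edgeR adjusted p = 0.0263) and SLIT1 (-1.30 ± 0.24 SE, adjusted p = 3.23e-05) did for KO against WT. FOXA1 was at 59.0 and 76.2 CPM in the WT libraries, 70.0 and 58.0 in the KO libraries, and 119 and 0 in the DATG libraries in floor plate-like nuclei and 9.01 and 7.63 in the WT libraries, 3.39 and 2.89 in the KO libraries, and 5.60 and 13.3 in the DATG libraries in the others. SLIT1 was at 1174 and 1142 CPM in the WT libraries, 1184 and 1265 in the KO libraries, and 1317 and 1069 in the DATG libraries and 77.6 and 42.9 in the WT libraries, 159 and 148 in the KO libraries, and 135 and 22.7 in the DATG libraries. For both genes the WT and KO libraries lay apart in the other nuclei. Both belong to the list by which these clusters were picked, so their values are a description. In the fit without DATG replicate 2, further list genes departed for KO against WT, in both directions. Among them were the neuronal genes ELAVL4 (-1.62 ± 0.35 SE), MAP2 (-1.37 ± 0.24 SE) and NRXN3 (-0.996 ± 0.247 SE). In the other nuclei each was higher in KO. There ELAVL4 was at 66.5 and 67.6 CPM in WT and 165 and 127 in KO, and MAP2 at 451 and 431 against 967 and 886. NRXN3 was there at 408 and 637 against 1387 and 1417. In floor plate-like nuclei NRXN3 was also higher in KO (213 and 190 against 275 and 259). MAP2 was lower in KO there (576 and 617 against 508 and 439), and ELAVL4 overlapped (92.7 and 18.0 against 31.6 and 29.7). The difference of effects for MITF, of the melanocyte list, had the opposite sign (1.78 ± 0.42 SE). MITF was at 8.43 and 18.0 CPM in WT and 55.3 and 34.4 in KO in floor plate-like nuclei. In the others it was at 50.4 and 59.7 in WT and 39.9 and 60.5 in KO. SPON1 was at 1253 and 2268 CPM in the WT libraries, 2136 and 2747 in the KO libraries, and 2738 and 1617 in the DATG libraries in floor plate-like nuclei and 154 and 166 in the WT libraries, 60.5 and 102 in the KO libraries, and 152 and 208 in the DATG libraries in the others, a difference of effects of 1.61 ± 0.41 SE (edgeR adjusted p = 0.0246) for KO against WT. SPON1 is a rule gene, so this value is a description. TFF3, a trefoil peptide of mucosal epithelia, was at 0 and 2.77 CPM in the WT libraries, 15.8 and 12.1 in the KO libraries, and 58.8 and 0 in the DATG libraries in floor plate-like nuclei and at 2.33 and 2.43 in the WT libraries, 1.00 and 1.42 in the KO libraries, and 5.45 and 2.34 in the DATG libraries in the others, 3.92 ± 0.89 SE for KO against WT (edgeR adjusted p = 0.00643) and 3.79 ± 0.89 SE for DATG against WT (adjusted p = 0.0161). Its highest value was in DATG replicate 1, and both calls were lost without WT replicate 1 (edgeR adjusted p = 0.0691 and 0.0505), KO replicate 1 (0.474 and 0.126) or KO replicate 2 (0.141 and 0.166), the second also without DATG replicate 1 (1.00).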

How the data were processed

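The authors deposited unnormalised UMI counts per gene and barcode for 6 libraries, on a joint human and mouse reference. Per the submitters' processing notes they used Cell Ranger 8.0.1 and the builds GRCh38 and GRCm38; the matrix headers give version 8.0.0 and the mouse features carry a GRCm39 prefix. No source used here gives the intron or strand settings, so genes overlapping an antisense partner may share reads. The members and gene lists were chosen with earlier results of these data known.

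Nuclei needed 500 UMIs, 300 genes and 90% human UMIs. Likely doublets were scored with Scrublet at an assumed 0.8% per 1000 nuclei and kept, with an alternative without them. Members were clustered with scanpy 1.11.5 without the rule genes (2000 variable genes, 30 components, 20 neighbours, Leiden resolution 0.6). A marker counted as raised at 2-fold and 20 CPM or more; lists of pooled levels took genes at 5 CPM or more over all human nuclei. UMIs were summed per library and tested with edgeR 4.0.16 (quasi-likelihood, TMM, filterByExpr; common coefficient of variation 35.5% within members and 11.4% for the difference of effects, which has library as a block), with DESeq2 1.42.0 as an alternative. On simulated counts for KO against WT with 200 changed genes, the fit within members (22218 genes) recovered 1 of 67 at 2-fold, 19 of 69 at 4-fold and 42 of 64 at 8-fold and made 6 false calls. The difference of effects (25204 genes) recovered 34 of 71, 56 of 60 and 68 of 69 and made 35 false calls. In each of these fits the false calls were a larger share of the calls than the adjusted p threshold aims at. The floor plate-like clusters, whose summed depth is lower, were not simulated. Named genes were, per comparison and direction, the 4 with the smallest unadjusted p at a mean of 5 CPM where none passed, and the 30 highest folds of members over others at 20 CPM in each library; a few of these are printed. The lists held 15 floor plate and 62 motile cilia genes, among others. Members' summed depth was 2820395 to 15169024 UMIs per library. Counting error alone does not cover the spread between tumours.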

Additional observations from a re-analysis of the deposited data

Results flagged for a closer look

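The floor plate-like nuclei (clusters 3 and 5 of the members) differed in their genotype contrasts from all other human nuclei of the same libraries. These others included the remaining members, and the edgeR test of that difference was used. The test passed for 115 genes for KO against WT, 48 for DATG against WT and 8 for DATG against KO. Tests of this kind made more false calls than the threshold aims at on simulated counts for all members, so some of these calls may be false. In DATG replicate 2 these clusters held 14 nuclei and 34622 UMIs, so the DATG values rest almost wholly on DATG replicate 1. Without DATG replicate 1 the comparisons with DATG called mostly other genes. With each library left out in turn the counts ran from 11 (without KO replicate 1) to 255 (without DATG replicate 2), from 12 (without KO replicate 2) to 158 (without DATG replicate 2), and from 0 (without KO replicate 1) to 254 (without DATG replicate 1). Of the 115 genes, 9 were called without KO replicate 1 and 102 without DATG replicate 2.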

How the results depend on the processing

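Of 846 recomputed values, 685 were labelled the same. Among 699 values of single genes, 574 kept their direction and side of the threshold. Of 57 shares, 46 kept their direction, and of 90 counts of genes, 65 stayed close to the main count. For the share of members, the KO minus WT difference (-0.654 percentage points) became 0.218 with at least 4 rule genes, 2.12 after thinning to 2000 UMIs and 1.87 after thinning to 1000, and ran from -5.32 to 4.01 when each library was left out. The DATG minus WT difference (-4.91) became 0.747 and 1.11 with the 2 thinnings, and DATG minus KO (-4.26) ran from -8.73 to 0.206 over left-out libraries. After thinning, DATG minus WT (0.747) became -2.86 with at least 2 rule genes and ran from -3.68 to 5.18, and DATG minus KO (-1.38) from -5.81 to 3.05. The cause was not tested.

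Within members, DESeq2 called 47, 86 and 168 genes for KO against WT, DATG against WT and DATG against KO, and for the difference of effects 1, 10 and 16. With no filter on low counts the last 2 differences of effects gave 7 and 5 genes, and only the 4 WT and KO libraries gave 615. With each library left out, calls within members ran from 0 to 677, 0 to 1745 and 0 to 5212, and differences of effects from 0 to 11, 0 to 898 and 0 to 1288; all non-zero counts came without a DATG library. In the floor plate-like clusters, an alternative chosen after seeing the data, the differences of effects were 115, 48 and 8, and 255, 158 and 6 without DATG replicate 2. With these clusters in place of all members, the NELL1 difference within the nuclei for KO against WT turned from 1.09 to -1.55 with and -1.55 without that library. In the difference of effects for DATG against WT, FGB turned from 2.20 to -0.16 and -0.11 and PEX5L from -1.03 to 0.69 and 0.61.

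The shared replicate numbers did not pair the libraries: deviations of same-numbered libraries correlated at -0.0814 (WT and KO), -0.265 (WT and DATG) and 0.198 (KO and DATG). With the replicate block 0, 0 and 0 genes were called within members. Depth limits single genes in clusters 3 and 5, where DATG replicate 2 gave 34622 UMIs and WT replicate 1 356000.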
